A study of Mus musculus with 6 samples.

Results

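Cytosolic ribosomal proteins are the protein parts of the ribosome that translates nuclear mRNA, and their genes were examined in cells sorted from the mouse genital tubercle. Members were the genes whose symbol starts with Rpl or Rps and goes on with a number, with an optional final letter, together with Rplp0, Rplp1, Rplp2 and Rpsa. Kinase genes named Rps6k and pseudogenes were left out, and only array probe sets annotated to exactly 1 gene were used. The rule found 45 genes with 99 probe sets among 18193 genes with a probe set of their own. They comprised 24 genes of the large subunit (Rpl, Rplp) and 21 of the small subunit (Rps, Rpsa), and 23 of the 45 had several probe sets, of which the brightest over all arrays was used. Of the 45, 43 passed the filter on dim genes, as did 14071 genes in all, and Rpl3l and Rps16 did not. Well-known members such as Rpl3, Rpl5, Rpl10 and Rplp1 had no probe set of their own here and are not analysed. The symbols of 110 further probe sets name a gene of this kind among several genes, and these are described apart.

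The external genitalia of both sexes develop from the genital tubercle, and an epithelial sheet at its midline, the urethral plate, gives rise to the urethra. All 6 arrays come from embryos at 12.5 days post coitum on a mixed background, males and females pooled, that carry Shhtm1(EGFP/cre)Cjt, a GFP-Cre fusion at the Shh locus, and Gt(ROSA)26Sortm3(CAG-EYFP)Hze, a yellow fluorescent reporter that Cre switches on. Sorting by fluorescence gave a reporter-positive fraction, labelled urethral epithelium, and a reporter-negative fraction with the other cells of the tubercle. Each fraction has 3 arrays, made from pools of 3, 5 and 2 littermates for replicates 1, 2 and 3. Both fractions carry the same alleles, the insertion at Shh included, and the reporter also marks descendants of cells in which Shh was active earlier. The labels do not say whether a positive and a negative pool of equal size came from the same litter. The comparison asks how the ribosomal protein transcripts of the Shh-lineage epithelium stand beside those of its neighbours.

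A ribosome has a small subunit, which reads the mRNA, and a large subunit, which joins the amino acids. Each ribosomal protein is needed in about equal number with the others and with the ribosomal RNA, so their genes are known as abundantly and jointly expressed, and growing embryonic tissue makes many ribosomes. Many of their mRNAs start with a C followed by a run of C and T bases, the terminal oligopyrimidine tract, through which mTOR signalling and the protein LARP1 control their translation.

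The tract is the feature best known to unite these genes, so their annotated starts were read from RefSeq promoter windows (GRCm38.p6, 250 bases before to 50 bases from the start), which held 48 windows of 40 of the 45 genes. Rpl7, Rpl8, Rps14, Rps20 and Rps29 had no window. A C at the annotated start followed by at least 4 bases that were C or T was found in 8 windows (16.7%), against 2.51% of all 32851 windows. The lines below give 20 bases before and 20 bases from the start on the gene's strand, 5′ to 3′, for members that recur in the results, with the tract in capitals. The first 6 hold it.
Rps18, chr17:33955646-33955685, minus strand: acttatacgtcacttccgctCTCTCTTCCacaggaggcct
Rps10, chr17:27635225-27635264, minus strand: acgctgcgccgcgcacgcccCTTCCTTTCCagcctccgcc
Rps27, chr3:90213629-90213668, minus strand: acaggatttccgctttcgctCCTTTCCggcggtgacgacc
Rplp2, chr7:141447631-141447670, plus strand: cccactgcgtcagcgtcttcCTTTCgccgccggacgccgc
Rpl38, chr11:114668560-114668599, plus strand: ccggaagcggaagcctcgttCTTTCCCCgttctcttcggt
Rps6, chr4:86857348-86857387, minus strand: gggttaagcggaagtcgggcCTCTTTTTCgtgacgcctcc
Rpsa, chr9:120127746-120127785, plus strand: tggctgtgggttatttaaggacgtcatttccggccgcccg
Rpl37a, chr1:72711240-72711279, plus strand: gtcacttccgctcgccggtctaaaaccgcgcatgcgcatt
Rps15, chr10:80292411-80292450, plus strand: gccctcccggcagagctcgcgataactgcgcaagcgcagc
Rpl41, chr10:128549149-128549188, minus strand: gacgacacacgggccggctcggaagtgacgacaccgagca

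The last 4 have no such run at the annotated base, which says only that these letters are not at that position. Of other motifs searched on both strands over the 300 bases, CCGGAAG, an ETS-type motif, was in 20 of 48 member windows (41.7%) and in 8.86% of all windows. GGGCGG, an SP1-type motif, was in 24 (50%) against 35.7%, and TATAAA in 5 (10.4%) against 13.6%. These counts describe the windows and do not show binding.

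Signal differed greatly between arrays before any scaling. The brightest of 27 unspiked control probe sets, taken as background, read 1.12 to 8.28 and the mean of 18 hybridization controls 1443 to 1884 in deposited units, whereas the share of named probe sets above background was 44.0% to 59.3% on 5 arrays and 24.6% on positive replicate 3. Over the 14071 genes, positive replicate 3 had rank correlations of 0.22 to 0.29 with the other arrays, which had 0.78 to 0.94 among themselves. All arrays share their probe sets, whose own brightness enters such values. Positive replicate 3 thus stands apart. Values are for all 6 arrays unless stated, and values from the 5 arrays that remain without it are given beside most differences between the fractions. Signal ratios of the 3′ to the 5′ control probe set of Actb were 10.8 and 10.3 in positive replicates 2 and 3 and 4.23 to 6.98 on the other arrays, and those of Gapdh were 5.83 to 9.27.

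By summed signal, epithelial and erythroid markers set the fractions apart, while mesenchyme markers did so only on positive replicates 2 and 3. Shh and Krt8, an epithelial keratin, were the 2 genes of 14071 that passed the limma test at an adjusted p of 0.05 with 6 arrays, with log2 differences (positive minus negative, here and throughout) of 5.03 and 4.46. Their adjusted p-values were 0.0122 and 0.0144. All 10 urethral epithelium markers had positive differences, with summed signal at 0.0104% to 0.0114% of that of the tested genes on the negative arrays and 0.196% to 0.536% on the positive arrays. The 10 erythroid markers summed to 0.449% to 1.68% on the negative arrays and 0.0743% to 0.327% on the positive ones. The 10 mesenchyme markers summed to 0.415% to 0.539% and 0.0464% to 0.448%, with positive replicate 1 at the top of the latter, inside the negative range. Their median difference from the negative mean was -0.02 on positive replicate 1, and -2.63 and -2.16 on positive replicates 2 and 3. The 9 leukocyte markers summed to 0.00345% to 0.00951% and 0.0255% to 0.0283%, and the 8 endothelium markers to 0.00478% to 0.00694% and 0.00773% to 0.0293%. On positive replicate 3 these 2 sums were 4.5 and 5.18 in deposited units, where background was 1.12 for 1 probe set. The shares of these 2 cell types thus hold signal near background. No marker tested was at 0. Apart from mesenchyme, the marker shares did not overlap between the fractions. The part of these cell types in the ribosomal protein values was not tested. Nor can fewer cells of a type and less RNA per cell be told apart in such bulk samples.

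Ribosomal protein transcripts were among the brightest of the genes on every array of both fractions. The median member above the filter read 1252, 1668 and 394 on the negative arrays and 820, 639 and 11.7 on the positive arrays, in deposited intensity and in the order of replicates 1, 2 and 3, which holds throughout. The median of all tested genes read 20, 26.0 and 4.69 against 12.5, 8.38 and 0.98 on the same arrays. Negative replicate 3 and, far more so, positive replicate 3 were low in both.

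Rank within an array does not depend on how arrays are scaled to each other. The median member lay at the 99.4th, 99.4th and 99.6th percentile of tested genes on the negative arrays and at the 99.5th, 99.5th and 99.3rd on the positive arrays. The fractions overlapped in this rank. Of the 43, 33 were in the top 5% of genes on all 6 arrays, as were 2.35% of all tested genes, and the other 10 were in the top 5% on none. A percentile ranks probe sets, which differ in affinity, and does not compare the amounts of different transcripts.

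**Figure D1:**
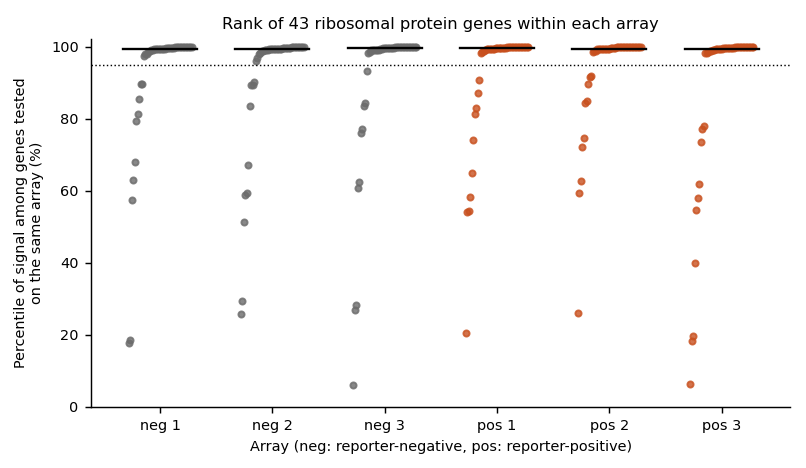
Percentile of signal (vertical axis, %) among the 14071 tested genes of the same array for 43 ribosomal protein genes, 1 point per gene, on 3 reporter-negative (grey) and 3 reporter-positive (orange) arrays; the bar is the median and the dotted line marks the 95th percentile. On each array 33 genes lie above the line and 10 below, and the median is between 99.3 and 99.6 on all arrays.

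The 10 dimmer members were Rpl12, Rpl14, Rpl27a, Rpl37, Rpl39, Rpl39l, Rps6, Rps25, Rps27 and Rps27l. Rpl39l, a paralogue of Rpl39 best known from testis, was above background on 1 of 6 arrays, at 5.10, 8.45 and 0.22 in the negative and 3.64, 3.44 and 0.10 in the positive replicates. Its parent Rpl39, by its own probe set, read 42.9, 40.0 and 7.41 against 17.4, 20.7 and 0.65. Rpl3l, the muscle paralogue of Rpl3, was not above background on any array, with 0.04 to 0.80, and neither was Rps16, with 0.08 to 4.34. Rps16 is a core protein of the small subunit, and its 1 probe set gave no level above background for it. In all, 36 of the 45 members were above background on all 6 arrays, and 37 to 43 on any 1 array.

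The members made up 5.06%, 4.72% and 7.40% of the summed signal of all genes on the negative arrays and 6.55%, 8.18% and 4.40% on the positive arrays. The ranges overlapped with and without positive replicate 3. The median member was 62.6, 64.1 and 84.1 times the median tested gene on the negative arrays and 65.6, 76.3 and 11.9 times on the positive arrays. Without positive replicate 3 the remaining positive arrays lay within the range of the negative ones, and with it the lowest ratio was a positive array.

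Between the fractions no ribosomal protein gene passed the main test, which does not pair the pools. With quantile normalization, which gives every array the same distribution of signals, and log2(signal + 16), 0 of 43 members had a limma adjusted p under 0.05, where 0.0142% of all tested genes did. The lowest adjusted p among members was 0.628, their standard errors ran from 0.14 to 0.56 and their differences from -0.84 to 0.97. Without positive replicate 3, 0 of 43 passed where 0.334% of genes did, and the lowest adjusted p was 0.248. At an unadjusted p under 0.05 there were 3 members with 6 arrays (Rpsa, Rps27 and Rpl37a, all positive), beside 5.17% of all genes, and 4 with 5 arrays (Rpsa, Rps27, Rps14 and Rpl27a), beside 8.74%. With limma's array weights, which gave positive replicate 3 a weight of 0.097 and the others 0.64 to 5.17, 6 members passed, beside 3.41% of all genes: Rpsa, Rpl37a, Rps15, Rps14, Rps10 and Rplp0, all higher in the positive fraction. With pool size as a replicate block 0 members passed with 6 arrays, beside 0.0142% of all genes. Without positive replicate 3 this block gave 3 members, beside 3.40% of all genes. They were Rpl37a, Rps14 and Rps15, all higher in the positive fraction. A value that missed the threshold does not show that the fractions were alike, since 3 arrays a group limit the precision.

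The median member difference was 0.14 with 6 arrays and 0.19 with 5 on the quantile-normalized scale, against -0.03 and -0.00 over all tested genes. Positive differences were found for 27 of 43 members with 6 arrays, beside 47.2% of all genes, and for 31 of 43 with 5 arrays, beside 49.5%. The array medians relative to the negative mean were -0.01, -0.09 and 0.05 in the negative and 0.16, 0.24 and 0.10 in the positive replicates, so the fractions did not overlap on this scale. The large subunit had a median of 0.14 and the small subunit 0.09 with 6 arrays, and 0.18 and 0.22 with 5, so their order was not stable.

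**Figure D2:**
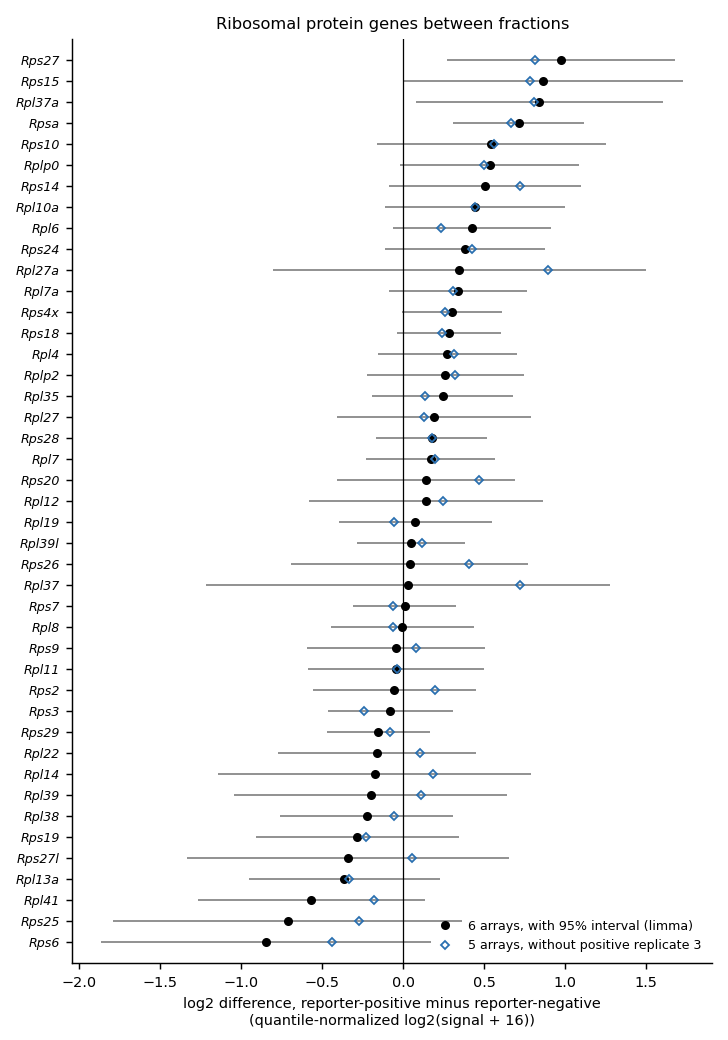
Log2 difference between the fractions (horizontal axis, positive minus negative) for each of 43 ribosomal protein genes; black points with bars are the 6-array values and their 95% intervals from limma, blue diamonds the values without positive replicate 3. Values run from -0.84 (Rps6) to 0.97 (Rps27) and the intervals of Rps27, Rpl37a and Rpsa lie above 0, while the others include it.

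The direction of the whole group rested on how arrays were scaled. Values as deposited gave a median member difference of -1.58 with 6 arrays and -0.09 with 5, and scaling to the hybridization controls gave -1.78 and -0.30. Centring each array on its median log2 value gave -1.39 and 0.01, scaling to the 75th percentile -0.41 and 0.30, and scaling to a trimmed mean that leaves out 2% at each end -0.06 and 0.39. Cyclic loess, which fits the difference between arrays along signal strength, gave 0.57 and 0.38. Over the 7 normalizations the number of members with a positive difference ran from 1 to 40 with 6 arrays and from 8 to 37 with 5.

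Positive replicate 3 shifted most between the scalings. As deposited, the median member of positive replicate 3 was at -4.66 from the negative mean, where positive replicates 1 and 2 were at -0.15 and -0.16 and negative replicates 1, 2 and 3 at 0.38, 0.71 and -1.10. With cyclic loess the same array was at 0.62, beside 0.32 and 0.42 for the other positive arrays and -0.03, -0.31 and 0.28 for the negative ones. Relative to the median of all tested genes, the members' median was between -1.25 and 0.55 with 6 arrays and between -0.00 and 0.37 with 5. The member medians of positive replicates 1 and 2 lay within the negative range as deposited, with median centring and with hybridization control scaling. Under quantile normalization and cyclic loess they lay above all 3 negative arrays. With trimmed mean and 75th percentile scaling only positive replicate 2 did. Positive replicate 1 was then at 0.12 and 0.04, and negative replicate 3 at 0.31 and 0.26. Over 5 arrays cyclic loess also overlapped, with positive replicate 1 at 0.22 and negative replicate 3 at 0.27.

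**Figure D3:**
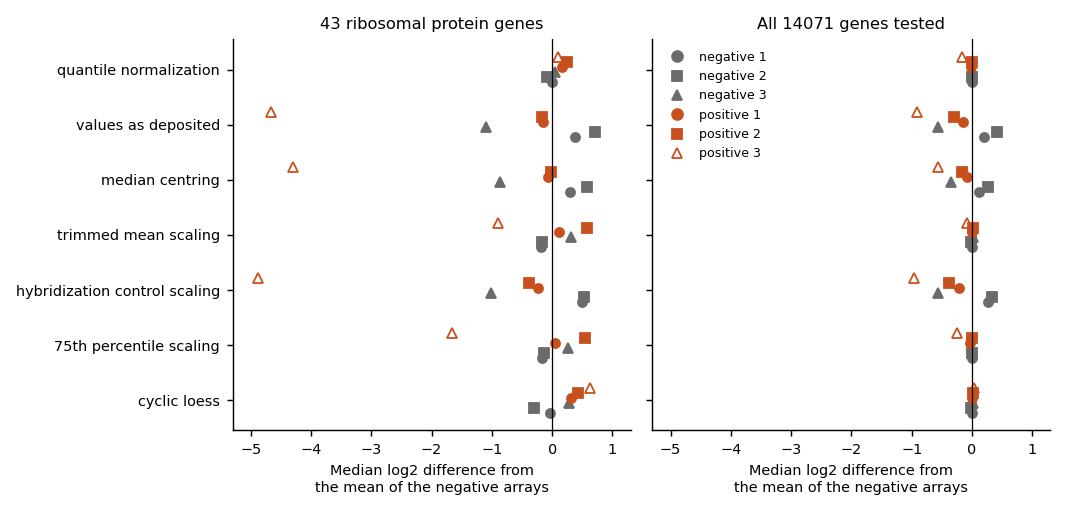
Median log2 difference from the mean of the negative arrays (horizontal axis) on each of the 6 arrays under 7 normalizations, for 43 ribosomal protein genes (left) and all 14071 tested genes (right); grey is reporter-negative, orange reporter-positive, and open triangles mark positive replicate 3. The open triangles range from -4.88 with hybridization control scaling to 0.62 with cyclic loess for the ribosomal protein genes.

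Bright and dim members had different medians under each scaling. The 33 members with a mean normalized log2 signal of at least 8 had medians of 0.18 with quantile normalization, -1.70 as deposited and 0.65 with cyclic loess, over 6 arrays. The 10 dimmer members had -0.07, -0.56 and 0.08. With 5 arrays the bright members had 0.20, -0.07 and 0.38 and the dim ones 0.15, -0.25 and 0.10, so as deposited the order of the 2 sets turned without positive replicate 3. The sign of the difference changed between the 7 normalizations for 39 of the 43 members with 6 arrays, Rps27 stayed positive, and Rps6, Rps19 and Rps25 stayed negative. With 5 arrays 30 members changed sign, 8 stayed positive (Rpsa, Rps14, Rps15, Rps20, Rps27, Rpl27a, Rpl37 and Rpl37a) and 5 stayed negative (Rpl11, Rpl13a, Rps6, Rps19 and Rps25).

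Values of single members relative to the group are free of a common scale. For this each member's deposited signal was divided by the median of the 43 members on the same array, and the ratio of the same probe set was compared across arrays. In 8 members all positive arrays had a higher ratio than all negative arrays, where 8.96% of all tested genes did: Rpsa, Rps18, Rps24, Rps27, Rps28, Rpl6, Rpl7 and Rplp2. In 0 members all positive arrays were lower, where 3.37% of all genes were, and in 35 the fractions overlapped. With 5 arrays 11 members were higher by this ratio, beside 11.2% of all genes, with Rps14, Rps20 and Rpl37 added to the 8, and Rps27l was lower, beside 10.9%. On the quantile-normalized scale 7 members were higher on all positive arrays, beside 6.29% of all genes (Rpsa, Rps4x, Rps18, Rps24, Rps27, Rps28 and Rpl6), and 0 were lower on all of them, beside 6.99%. With 5 arrays these counts were 10, beside 12.9%, and 1 (Rps3), beside 11.3%. The count of higher members with 6 arrays was 0 as deposited, with median centring and with hybridization control scaling. The shares of all tested genes were 0.497%, 2.94% and 0.384% there. With trimmed mean and with 75th percentile scaling the count was 1, beside 7.63% and 4.95% of all genes. Cyclic loess gave 10, beside 8.65%.

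Rpsa, a small subunit protein also known as a laminin receptor, had the lowest unadjusted p among the members with 6 arrays, while Rps27 had it with 5. Its deposited signal read 1554, 2215 and 781 on the negative arrays, against 1792, 1917 and 58.2 on the positive arrays. Its ratio to the member median was 1.24, 1.33 and 1.98 on the negative and 2.19, 3.00 and 4.97 on the positive arrays. All positive arrays thus lay above all negative ones, with negative replicate 3 and positive replicate 1 closest. After quantile normalization the means were 10.92 ± 0.09 (SD, n = 3) and 10.21 ± 0.32 (SD, n = 3), a difference of 0.71 with a standard error of 0.18, a 95% interval of 0.31 to 1.11 and a limma adjusted p of 0.628, and 0.66 with 5 arrays. The difference was -1.36 to 1.35 over the 7 normalizations with 6 arrays and 0.21 to 0.92 with 5. The second Rpsa probe set was at background level and gave -0.05.

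Rps18, Rps28 and Rpl6 were bright members whose positive arrays shared 1 order. Rps18, in the head of the small subunit, had ratios of 1.99, 1.81 and 1.62 on the negative and 2.03, 2.97 and 4.71 on the positive arrays, so the closest arrays differed by little. Rps28, a small subunit protein near the mRNA exit, had 1.35, 1.53 and 1.51 against 1.72, 1.92 and 2.78. Rpl6, of the large subunit, had 1.0, 1.0 and 1.12 against 1.14, 1.35 and 2.99. In each of the 3 genes the highest ratio was that of positive replicate 3, and positive replicate 1 lay closest to the negative arrays. Such a rise over the positive replicates was not particular to them. Rps4x had 2.22, 2.76 and 4.91 and Rps7 had 2.17, 2.28 and 4.66. In Rps2 and Rps20, also bright, positive replicate 3 was instead the lowest positive array, at 1.76 and 1.66. The normalized differences below are those of Rps18, Rps28 and Rpl6. These differences were 0.28, 0.18 and 0.42, and 0.24, 0.18 and 0.24 with 5 arrays, and none passed the test. The 2 other probe sets of Rps28 gave 0.21 and 0.13.

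Rps27, a zinc finger protein of the small subunit, had the highest difference of all members, from a dim probe set. It read 5.28, 9.86 and 2.26 in the negative and 14.8, 13.8 and 1.72 in the positive replicates, and was above background on 5 of 6 arrays. The normalized values were 4.25, 4.40 and 4.37 against 4.93, 5.22 and 5.79, which did not overlap. The difference was 0.97 with a standard error of 0.32 and a limma adjusted p of 0.725, and 0.82 without positive replicate 3. Its stress-induced paralogue Rps27l read 154, 205 and 47.1 against 88.0, 71.5 and 1.67, with a difference of -0.34 and overlapping arrays, and the difference was 0.05 without positive replicate 3.

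Rpl37a and Rps15 shared a pattern in which the third negative array sat with the positive ones. Rpl37a, a small zinc-binding protein of the large subunit, had ratios to the member median of 0.473, 0.346 and 0.673 on the negative and 0.635, 0.948 and 0.995 on the positive arrays. Rps15, whose tail reaches the decoding centre, had 0.406, 0.302 and 0.639 against 0.465, 0.936 and 0.966. In both genes negative replicate 3 exceeded positive replicate 1, so the fractions overlapped. The normalized differences were 0.84 (standard error 0.34) for Rpl37a and 0.86 (standard error 0.39) for Rps15, each with a limma adjusted p of 0.725, and 0.81 and 0.78 with 5 arrays. Other probe sets of the same genes gave -0.40 and -0.37 for Rpl37a and -0.18 for Rps15 with 6 arrays, and 0.54, -0.13 and 0.69 with 5, so for the brighter of these the sign turned with positive replicate 3.

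Rps10 and Rps14 followed the same order in part. Rps10, of the small subunit and one of the genes mutated in Diamond-Blackfan anaemia, had ratios of 0.572, 0.501 and 0.951 against 0.747, 1.02 and 1.0, and a difference of 0.54, or 0.56 with 5 arrays. Of its 5 other probe sets 4 gave 0.76 to 0.86 and the dimmest gave -0.20. Rps14, whose loss is known from a form of myelodysplastic syndrome, had ratios of 0.972, 1.10 and 1.63 against 2.00, 2.26 and 1.55, and a difference of 0.51 that was 0.72 without positive replicate 3. In both genes negative replicate 3 lay within the range of the positive arrays.

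The stalk of the large subunit, which recruits elongation factors, was covered by Rplp0 and Rplp2. Rplp0 had ratios of 1.01, 1.02 and 1.70 on the negative and 1.32, 2.43 and 2.99 on the positive arrays, which overlapped, and a normalized difference of 0.53 (95% interval -0.02 to 1.08), or 0.50 with 5 arrays. Rplp2 had 0.951, 1.21 and 1.48 against 1.57, 1.49 and 1.69, which did not overlap by a small margin, and a difference of 0.26 (-0.23 to 0.75), or 0.32 with 5 arrays. Negative replicate 3 was the highest negative array in both. Over the members it was the highest normalized negative value in 20 of 43, and over all tested genes in 41.4%.

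**Figure D4:**
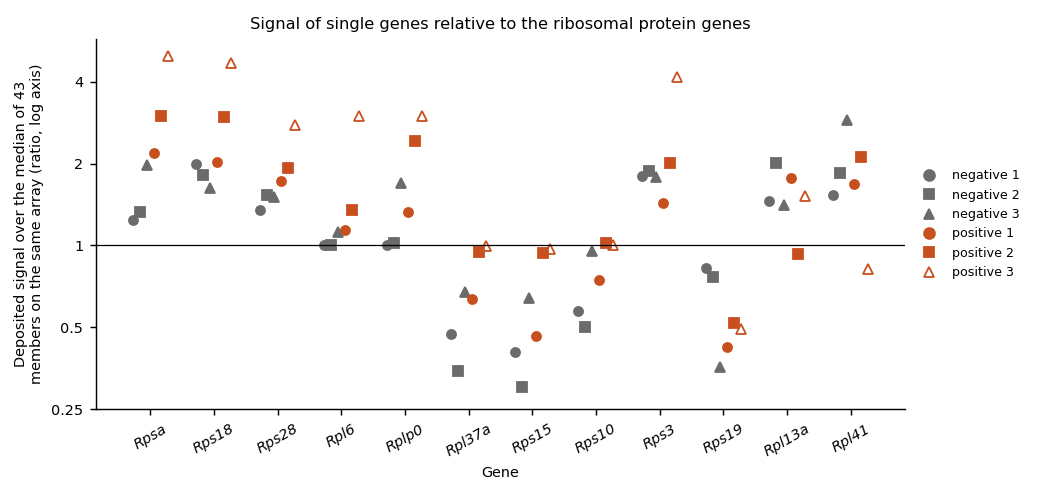
Deposited signal of 12 single genes over the median of 43 ribosomal protein genes on the same array (vertical axis, ratio on a log axis), with grey for reporter-negative and orange for reporter-positive arrays and an open triangle for positive replicate 3. Rpsa runs from 1.24 to 1.98 on the negative and 2.19 to 4.97 on the positive arrays, while Rps19, Rpl13a and Rpl41 overlap between the fractions.

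At the lower end the arrays overlapped in every gene. Rps6, the substrate of S6 kinase downstream of mTOR, had the lowest difference, from a dim probe set that read 152, 219 and 21.4 in the negative and 46.7, 39.4 and 1.11 in the positive replicates. Normalized, these were 6.70, 6.76 and 6.25 against 6.03, 6.26 and 4.88, with a difference of -0.84 (95% interval -1.86 to 0.17) that was -0.44 with 5 arrays. Positive replicate 2 and negative replicate 3 were level, and positive replicate 3 was lowest and not above background. Rps25, a small subunit protein known for its part in internal initiation, read 77.7, 130 and 6.94 against 22.8, 23.3 and 0.09, with a difference of -0.71 that was -0.27 with 5 arrays. Both genes were negative under all 7 normalizations with either number of arrays.

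Rpl41, the smallest ribosomal protein, had the lowest difference among the bright members, at -0.57, and -0.18 without positive replicate 3. It read 1923, 3080 and 1143 against 1380, 1349 and 9.57, and positive replicate 3 alone lay below the negative arrays in ratio. A second bright Rpl41 probe set gave 0.49, or 0.18 with 5 arrays, the opposite sign. Dimmer Rpl41 probe sets gave -0.82 and -0.28, or -0.66 and -0.38 with 5 arrays, the same sign. Rpl13a, known for a role in silencing mRNAs and often used as a reference gene, had ratios of 1.46, 2.01 and 1.41 against 1.77, 0.933 and 1.52, with a difference of -0.36, or -0.33 with 5 arrays, and positive replicate 2 was lowest. All 3 other Rpl13a probe sets were also negative, from -0.54 to -0.32, and from -0.42 to -0.10 with 5 arrays.

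Rps19, the gene first tied to Diamond-Blackfan anaemia, had ratios of 0.824, 0.767 and 0.358 on the negative and 0.422, 0.518 and 0.494 on the positive arrays. Negative replicates 1 and 2 were above the positive arrays and negative replicate 3 was below them. Its difference was -0.28 with a standard error of 0.28 and was negative under all 7 normalizations with 6 and with 5 arrays, and none of these passed the test. Rpl11, which with Rpl5 binds Mdm2 when ribosome assembly fails, had a difference of -0.05 with an interval of -0.59 to 0.50, and -0.04 with 5 arrays.

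Rps2 and Rps3, at the mRNA entry of the small subunit, had differences of -0.06 (-0.56 to 0.45) and -0.08 (-0.46 to 0.30). Without positive replicate 3 these were 0.20 and -0.25, so the sign of Rps2 turned and the value of Rps3 grew. Rps3 ratios were 1.80, 1.88 and 1.78 against 1.43, 2.00 and 4.17, so the positive arrays lay on both sides of the negative ones. Among the brightest probe sets, Rps29 had -0.15 (-0.47 to 0.17), Rps7 0.01 (-0.31 to 0.33) and Rps4x, on the X chromosome, 0.30 (-0.01 to 0.61). These intervals are among the narrowest of the members, and all include 0. Over 5 arrays the 3 differences were -0.08, -0.07 and 0.26. These values are of the probe set used. A second Rps7 probe set, with a mean log2 signal of 8.58, gave 0.68, above that interval, and 0.78 with 5 arrays. Other Rps29 probe sets gave -0.18 and -0.05. The brightest gene of the 3, Rps29, read 2807, 3587 and 943 against 1868, 1558 and 36.9.

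Relative to the median member, a few genes kept their place under every scaling. With 6 and with 5 arrays 11 members were above the member median difference in 7 of 7 normalizations, namely Rpsa, Rps10, Rps14, Rps15, Rps18, Rps27, Rpl7a, Rpl10a, Rpl27a, Rpl37a and Rplp0. Another 10 were below it in 7 of 7, namely Rps9, Rps19, Rps29, Rpl8, Rpl11, Rpl13a, Rpl19, Rpl22, Rpl38 and Rpl41. Rpl38, known for its part in the translation of Hox mRNAs, read 1439, 1600 and 292 against 672, 560 and 7.89, with a difference of -0.22, or -0.06 with 5 arrays, and overlapping arrays. The 7 normalizations use the same arrays, so this count describes processing and not repeat measurements. It also depends on the constant added to each signal before taking logs, which shrinks the differences of dim members. Relative to the member median, dim Rps6, Rps25 and Rpl27a were at -0.98, -0.85 and 0.21 with quantile normalization and 6 arrays. As deposited they were at 0.04, 0.35 and 1.23, so Rps6 and Rps25 are absent from the lower list. Values as deposited and median centring give identical differences relative to the median member, so the 7 are not all separate.

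Members with and without the start tract were found at both ends of the order of differences. The 8 genes with the tract (Rpl14, Rpl35, Rpl38, Rplp2, Rps6, Rps10, Rps18 and Rps27) had a median difference of 0.25, with 5 positive, and with 6 arrays they include both the highest and the lowest member of all. The 30 tested genes with a window and no tract had a median of 0.06, with 19 positive. With 5 arrays the medians were 0.21 and 0.19, with 6 and 22 positive, and the highest member was Rpl27a, at 0.89, which has no tract.

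Probe sets that name several genes were treated apart. Of the 110 that name a ribosomal protein gene among several genes, 106 were above the filter, with a median difference of 0.14 and 68 positive. Without positive replicate 3 the median was 0.16, with 73 positive. As deposited it was -1.47 and with cyclic loess 0.34, so their direction also turned with the scaling. Of 47 further probe sets of the members themselves above the filter, 16 had the opposite sign to the one used, in 12 members. Many ribosomal protein genes have processed copies in the genome, and how far such copies share signal with a probe set was not tested.

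The other parts of the protein synthesis machinery likewise had 0 genes past the limma threshold with 6 or with 5 arrays. The elongation list, factors together with Eef1e1, Eef2k and Tpt1, had 7 of 9 positive and a median of 0.26, or 0.17 with 5 arrays. In it Eef1b2, an exchange factor for eEF1A, was at 0.49 and Eif5a, which helps the ribosome past proline runs, at -0.39. Initiation factors had 15 of 30 positive and a median of -0.02, or 0.04 with 5 arrays, from Eif1ax at -1.08 to Eif3d at 0.93. Genes of ribosome assembly and ribosomal RNA synthesis had 21 of 35 positive and a median of 0.07, from Fbl, the methyltransferase of box C/D particles, at -1.13 to Tsr1, a late small subunit assembly factor, at 0.70. Without positive replicate 3 the assembly median was 0.16, Fbl was at -0.17, Eif1ax at -0.69 and Eif5a at -0.20.

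Signalling genes that act on S6 and on tract mRNAs had 8 of 13 positive and a median of 0.03, from Rps6ka3 at -1.06 to Rptor, the defining subunit of mTOR complex 1, at 0.71. Without positive replicate 3 that median was 0.09 and these genes were at -0.33 and 0.23. Ribosomal proteins under other names had 2 of 4 positive and a median of -0.29, but 3 of 4 and 0.11 with 5 arrays. Of these Fau was at 0.18 and Rps3a1 at 0.02, while Rpl22l1 was at -0.60 and Rpl7l1 at -0.61, and the latter turned to 0.13 with 5 arrays. Mitochondrial ribosomal proteins, which serve another ribosome, had 23 of 76 positive and a median of -0.21, and 39 of 76 and 0.04 without positive replicate 3. Proteasome core genes, which act in protein breakdown, had 2 of 14 positive and a median of -0.25, and 5 of 14 and -0.11 with 5 arrays, with Psmb7 lowest at -1.34 and Psmb3 highest at 0.17, and at -1.35 and -0.13 with 5 arrays.

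The scaling moved these lists as it did the members. Over the 7 normalizations the 6-array median ran from -1.83 to 0.27 for elongation, from -1.51 to 0.15 for initiation, from -1.0 to 0.15 for assembly and from -0.89 to 0.07 for mitochondrial ribosomal proteins. With 5 arrays the ranges were -0.32 to 0.32, -0.57 to 0.14, -0.41 to 0.18 and -0.45 to 0.10. The cytosolic ribosomal proteins ran from -0.30 to 0.39 on the same 5 arrays. The proteasome list alone among these kept 1 sign, from -1.90 to -0.08 and from -0.88 to -0.11.

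**Figure D5:**
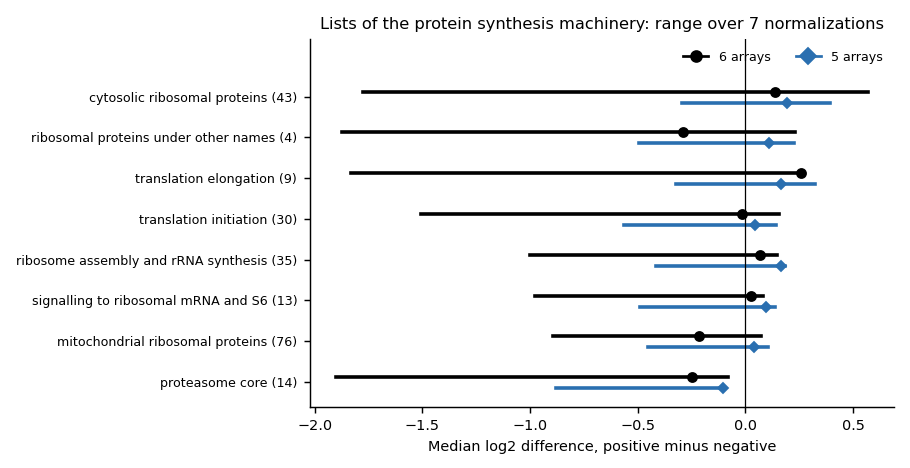
Median log2 difference between the fractions (horizontal axis, positive minus negative) of 8 gene lists with the number of genes tested in brackets; points are quantile-normalized values and bars the lowest to highest value over 7 normalizations, in black for 6 arrays and in blue for 5. The bars of 7 lists cross 0, and that of the proteasome core stays below it.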

How the data were processed

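Labelling by in vitro transcription and mouse expression arrays were used, per the labels. For each of 45101 probe sets the deposited table holds 1 linear intensity per array. GCOS is named for 1 of 6 samples in the submitters' processing notes, and how probes were summarized and scaled is not given in the sources used here. Groups came from the sample labels, and 64 control probe sets were set aside. Symbols were updated through the RefSeq gene table of GRCm38.p6, which matched 34741 of the 34945 probe sets with 1 gene, while 932 had several genes and 9160 none here.

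Linear signals of 45037 probe sets were quantile normalized and taken to log2(signal + 16), which understates changes of dim genes. Each gene was represented by its brightest probe set over all arrays. Genes with a mean over 4.22 on this log2 scale, the 30th percentile of the named probe sets, were tested in limma 3.58.1 under R 4.3.3 (lmFit, then eBayes using a trend with intensity). Benjamini-Hochberg adjustment ran over all 14071 genes, with a threshold of 0.05. The steps were tested on simulated data. Replicates are arrays of separate pools, so p-values measure the spread between pools and arrays together. Other normalizations, pseudocounts of 1 and 64, filters, probe set choices, array weights and left-out arrays were tried.

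Named genes were the 6 highest and 6 lowest members, members listed for their roles, paralogues with their parents, the 3 brightest and 3 dimmest, and for other lists the genes past the threshold or the largest in each direction. Rps14, Rps18, Rps20, Rps24, Rps28, Rpl6 and Rpl38, genes named only in counts, and the RefSeq motifs were picked after their values were seen. Members and lists were chosen with earlier results of these data known.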

Additional observations from a re-analysis of the deposited data

How the results depend on the processing

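Of 32 alternatives 30 gave 0 ribosomal protein genes past the limma threshold. The exceptions were array weights (6 members, of 480 genes) and pool size as a replicate block without positive replicate 3 (3 members, Rpl37a, Rps14 and Rps15, of 479 genes). Same-numbered pools have equal sizes and adjacent title numbers, so a shared litter is possible, but no label states it. Their deviations correlated at 0.13, 0.03 and 0.11, and those of other pairs at -0.13 to 0.06. Positive replicate 2 was at 0.037 with negative replicate 1 and 0.033 with negative replicate 2, too close to decide. These correlations thus cannot settle pairing, and the main fit left the samples unpaired. With all 6 arrays the replicate block gave 0 members of 2 genes. The member median was positive in 25 alternatives and negative in 7. All 7 negative ones were other normalizations, while many of the 25 kept quantile normalization, so the tally gives no direction. In 18 alternatives the median moved by less than the 0.07 spread (SD) between arrays of the same fraction. Outside that spread with 6 arrays were values as deposited (-1.58), median centring (-1.39), trimmed mean (-0.057), hybridization controls (-1.78), the 75th percentile (-0.41), cyclic loess (0.57) and scaling to the members' median (0.32). With 5 arrays the same settings gave -0.094, 0.013, 0.39, -0.30, 0.30, 0.38 and 0.25. Scaling to the members' median sets their median signal equal on all arrays, so its values give no direction for the group. The median percentile was 99.4, and 99.6 among all 18193 genes.

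Genes called in all, 2 as reported, numbered 0 as deposited, with trimmed mean, hybridization control and member scaling, with pseudocount 64 and with the mean of probe sets. They numbered 24 with median centring, 21 with the 75th percentile, 7 with pseudocount 1 or the probe set of highest deposited mean, and 6 with the stricter filter. Leaving out 1 array gave 0 to 47, the latter without positive replicate 3, and replicates 1 and 2 alone gave 12. With 5 arrays the counts were 0 as deposited and with hybridization controls, 58, 53, 36 and 87 with median centring, trimmed mean, 75th percentile and cyclic loess, 22 with member scaling, and 84 with probe set and filter chosen again. Member scaling and that last choice were added after seeing the data. The cause of these shifts was not tested. Low signal on positive replicate 3, with 37 of 45 members above background, limits what 6 arrays can show.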
